A study of Mus musculus with 8 samples.

Results

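The cytosolic ribosomal protein genes encode the protein parts of the ribosome outside mitochondria. They were taken here as all protein-coding rows named Rpsa, Rplp0, Rplp1 or Rplp2, or Rpl or Rps followed by a number and at most a final a or l, leaving out Rps6k kinase genes and symbols with -ps, the mark of a pseudogene. This rule, which uses no measured value, gave 77 of the 20888 genes in the deposited table, of which 30 encode proteins of the small (40S) subunit and 47 proteins of the large (60S) subunit, the stalk included. It leaves out 8 genes of the same family whose names end differently, such as Rps4x, Rps3a1, Rpl22l1, Rpl36al, Rpl7l1 and Rps27rt, which are given at the end. RNA-seq was measured in mouse T-ALL blasts (cells of T cell acute lymphoblastic leukaemia) sorted from peripheral blood. All 8 libraries come from mice with the Vav-CRE transgene, which drives recombination across blood-forming cells and so is not limited to T cells. The control group holds 4 libraries with wild-type Kdm6b, and the other group holds 4 libraries of homozygous Kdm6b mutants (Kdm6b-KO). Kdm6b encodes a demethylase of histone H3. The sources used here do not give how the leukaemia arose, the age of the mice, or whether each library is from a mouse of its own. The p-values therefore measure only how far these libraries spread, and that spread may be technical.

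Each ribosome is built from a single copy of nearly every ribosomal protein, so a cell makes these proteins in matched amounts, and their mRNAs are among the most abundant of a growing cell. Most of the mRNAs begin with a C followed by an unbroken stretch of pyrimidines (C or T in the DNA), the terminal oligopyrimidine or TOP motif, through which the kinase complex mTORC1 and the RNA-binding protein LARP1 set their translation. In leukaemia, several of these genes are known beyond their structural role: RPL10, RPL5 and RPL22 are mutated or deleted in human T-ALL, and free RPL5 and RPL11 hold back MDM2, the protein that marks p53 for destruction.

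The bases around the starts of the genes are shown because such a stretch is known for most of these mRNAs and the rule did not use it. RefSeq start windows (build GRCm38.p6, the sequence build of mm10) were matched by symbol for 57 of the 77 members. The transcribed strand alone was searched, within 50 bases of the annotated start on either side, for a run of at least 8 pyrimidines that opens with a C. Such a run was found in 50 of the 57 members (87.7%) and in 32.0% of 27025 promoters of all genes, and the median longest run was 10 bases in the members and 6 bases over all promoters. The longest run of each of the following members is in capitals, 5′ to 3′, with the bases around it.
Rpl11, chr4:136053358-136053387, minus strand: ccggaagtCTCCCTCTCTCTTCCTgttctc
Rpl5, chr5:107900500-107900529, plus strand: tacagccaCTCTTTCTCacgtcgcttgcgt
Rpl22, chr4:152325679-152325708, plus strand: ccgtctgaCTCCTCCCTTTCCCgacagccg
Rpl13, chr8:123102326-123102355, plus strand: tgacgtcaCTTCCCTTTCgcctgattttga
Rpl36a, chrX:134585673-134585702, plus strand: ggctctagCCTCTCTCTTTCCgagctgcta
Rplp2, chr7:141447639-141447668, plus strand: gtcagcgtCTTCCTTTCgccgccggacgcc
Rplp0, chr5:115559472-115559501, plus strand: gcctggttCTCCTataaaaggcacacgcgg
Rps27, chr3:90213629-90213658, minus strand: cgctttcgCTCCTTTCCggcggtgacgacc
Rps27l, chr9:66946056-66946085, plus strand: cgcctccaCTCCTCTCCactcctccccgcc
Rpl11 carries a run of 16 bases, while Rplp0, the stalk base, is among the 7 members whose longest run is under 8 bases. The runs of Rpl22, Rps27l, Rpl5 and Rpl13 open at -39, -22, -20 and -16 bases from the annotated RefSeq start. They end before that start and so lie outside the annotated mRNA. A match is a description of these letters and not evidence of where transcription starts or that the mRNA begins with the run.

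A second set of sequences is shown for the pair with the most extreme log2 changes, Rps27 and Rps27l. Rps27 lies on chromosome 3 (mm10, chr3:90212522-90213651, minus strand, 4 exons) and Rps27l on chromosome 9 (chr9:66946086-66949516, plus strand, 4 exons), and both encode a small zinc-binding protein of the 40S subunit. Their coding sequences in the GENCODE vM21 annotation of mm10 are each 255 bases long with the stop codon. Capitals in Rps27l mark the 61 bases that differ from Rps27.
Rps27: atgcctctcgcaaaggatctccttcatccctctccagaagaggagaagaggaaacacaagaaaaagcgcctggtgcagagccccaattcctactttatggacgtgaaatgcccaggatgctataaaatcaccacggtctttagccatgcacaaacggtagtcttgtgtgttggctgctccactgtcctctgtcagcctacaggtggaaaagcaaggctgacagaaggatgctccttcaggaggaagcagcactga
Rps27l: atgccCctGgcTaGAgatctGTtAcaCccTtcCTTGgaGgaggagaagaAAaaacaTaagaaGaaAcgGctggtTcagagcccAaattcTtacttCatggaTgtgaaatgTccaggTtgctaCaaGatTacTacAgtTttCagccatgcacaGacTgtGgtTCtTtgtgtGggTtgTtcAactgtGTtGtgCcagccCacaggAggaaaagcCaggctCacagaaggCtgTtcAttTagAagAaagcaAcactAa
The sequences are 76.1% identical, and the longest stretch shared without a difference is 11 bases. A further gene, Rps27rt (chr9:114982366-114982739, minus strand, 1 exon), has a coding sequence identical to that of Rps27 at all 255 bases, so a read inside it cannot be assigned to either of them by its letters.

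Depth was estimated at 18263020 to 22070880 reads per control and 14017980 to 18244220 reads per library labelled knockout. Levels are in CPM, read counts scaled to the same total in every library. Kdm6b had 514 ± 135 CPM in controls (SD, n = 4) and was not lower in the libraries labelled knockout, with 587 ± 92.2 CPM (SD, n = 4). A gene-level value holds reads from outside any deleted part, so it does not check the label, and the group is called KO-labelled. Xist was near 0 in every control and the Y-linked gene Ddx3y near 0 in every KO-labelled library, and a difference by sex therefore cannot be told apart from one by label. T cell genes were high throughout, with the 8 markers summing to between 13167 and 18617 CPM. Among markers of other cells, the NK gene Ncr1 was at 3.73 CPM or less in every library and the B cell gene Cd79a at 1.28 CPM or less, while Gzma ran from 41.5 to 268 CPM, Nkg7 from 10.3 to 129 CPM and Ighm from 629.7 to 852 CPM. The 3 platelet markers in the table summed to at most 4.94 CPM. In bulk RNA, fewer cells of a type and less RNA per cell cannot be told apart.

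Control replicate 4 stood apart for the ribosomal protein genes and is described first, since it enters every comparison of the groups. The members summed to 17808 CPM in control replicate 1, 15499 CPM in replicate 2, 16344 CPM in replicate 3 and 31722 CPM in replicate 4. In the KO-labelled libraries the sums were 17015, 17188, 17866 and 22284 CPM in replicates 1 to 4. Control replicate 4 was thus 1.92 times the mean of the other controls, KO-labelled replicate 4 was 1.28 times the mean of its other libraries, and the remaining 6 libraries lay between 15499 and 17866 CPM. As a share of all CPM, the members took 1.55% to 1.78% in the other controls and 3.17% in control replicate 4, against 1.70% to 1.79% and 2.23% in the KO-labelled libraries. The difference of the group means of the log2 sums, KO-labelled minus control, was -0.07, which is smaller in size than the SD between libraries of 0.36.

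**Figure D1:**
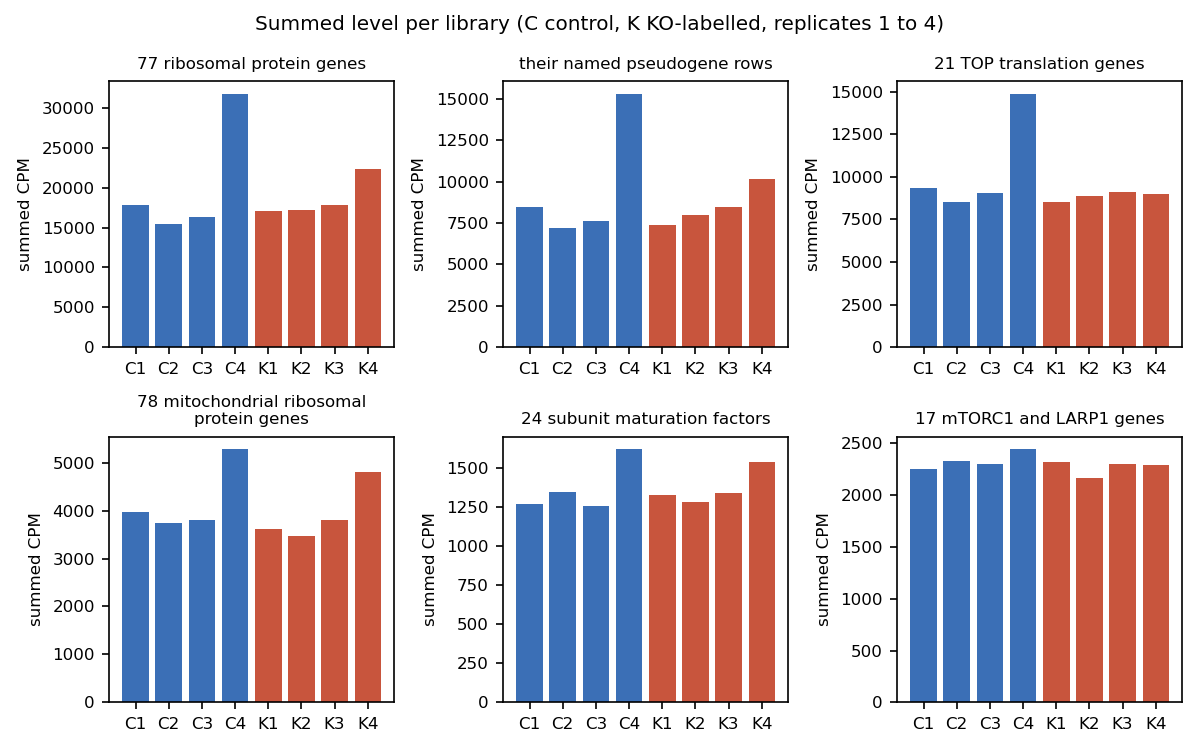
Summed level (CPM, bars from 0) in each library (C1 to C4 controls, K1 to K4 KO-labelled) of the 77 ribosomal protein genes, their named pseudogene rows, 21 TOP translation genes, 78 mitochondrial ribosomal protein genes, 24 subunit maturation factors and 17 mTORC1 and LARP1 genes. C4 is the highest bar in every panel, at 31722 CPM for the ribosomal protein genes and 2442 CPM for the mTORC1 and LARP1 genes, where the bars are nearly level.

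The excess ran through the whole gene set and through both subunits. All 76 members that could be tested had their highest control value in replicate 4, where 34.9% of all 13840 genes tested did. Their median log2 excess over the other controls was 0.94 on the log2(CPM + 1) scale, a 1.91-fold difference, and it ran from 0.27 to 1.36 over the members. At least a 2-fold excess was found for 31 members (40.8%), against 4.86% of all genes tested. By ratio of CPM, Rps20 (2.56-fold), Rpsa (2.55-fold) and Rps27l (2.54-fold) stood highest in control replicate 4, and Rps12 (1.22-fold) and Rpl10 (1.29-fold) lowest. In KO-labelled replicate 4, 73 of the 76 members had the highest value of their group (all genes 30.3%), with a median log2 excess of 0.44. The summed level of 40S members was 0.676 to 0.717 of that of 60S members in all 8 libraries, so the balance between subunits moved far less than the total. In control replicate 4 the 40S members summed to 13250 CPM and the 60S members to 18471 CPM. These figures describe single libraries and carry no test.

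**Figure D2:**
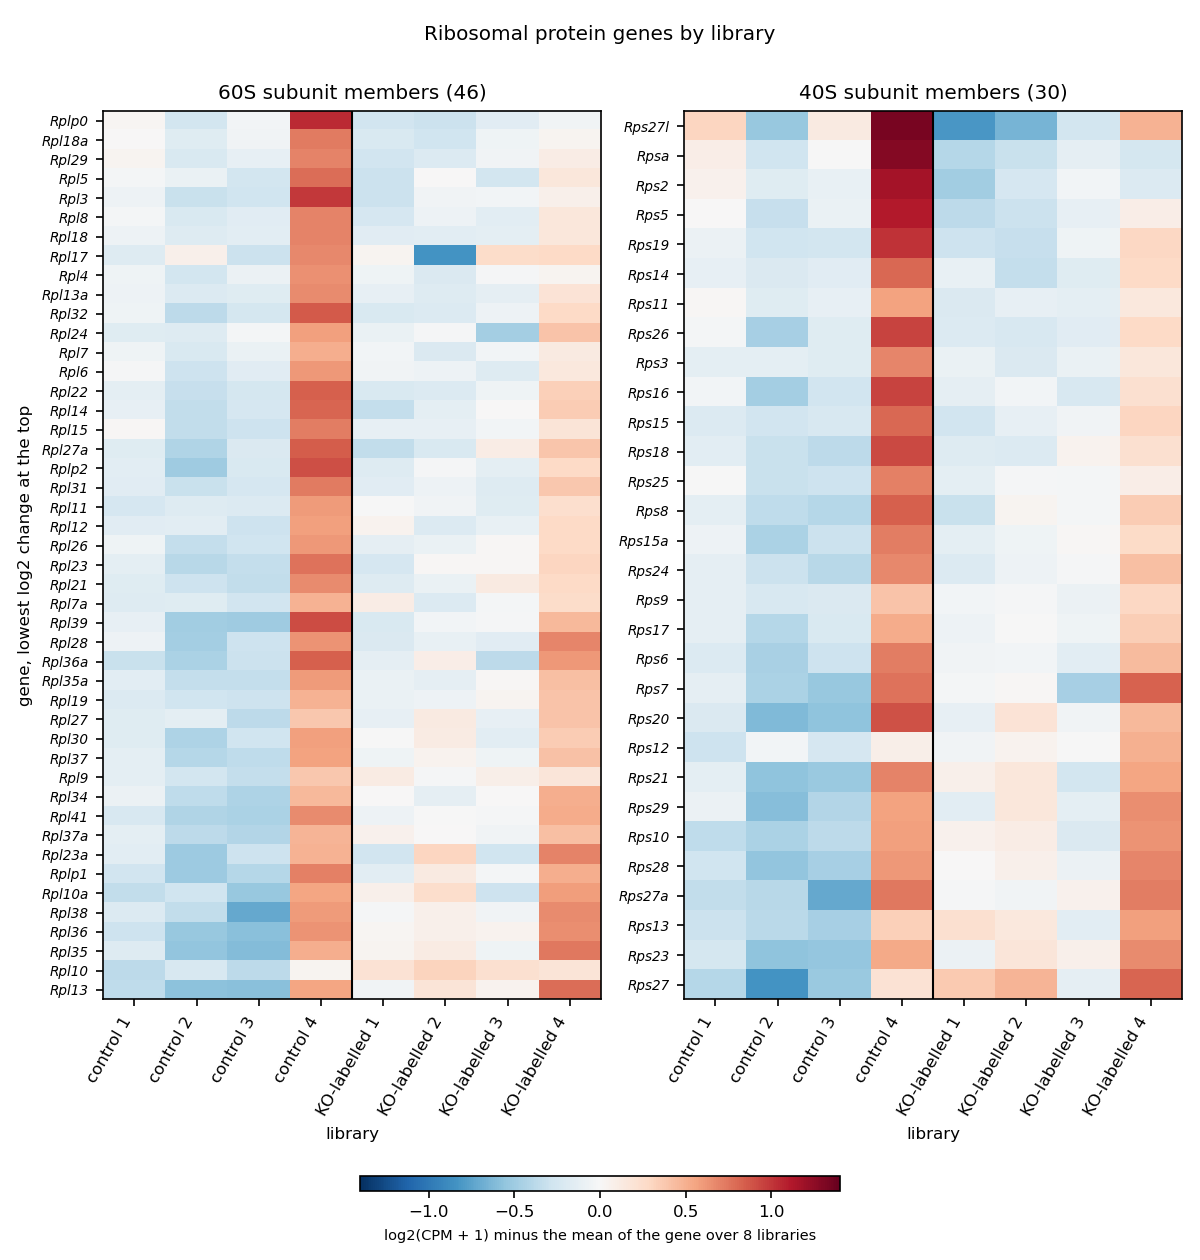
Each row is a member and each column a library, and the colour gives log2(CPM + 1) minus the mean of that gene over the 8 libraries, red above and blue below. All 76 members are above their mean in control replicate 4, and 73 of them have their highest KO-labelled value in replicate 4.

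Other measurements moved with control replicate 4. Myc, which encodes a transcription factor known to drive ribosome production, was at 79.7, 49.4, 47.9 and 292 CPM in control replicates 1 to 4. It was at 25.6, 31.2, 46.6 and 45.1 CPM in KO-labelled replicates 1 to 4, so replicate 4 was not the highest of that group. In control replicate 4 the T cell genes Cd4 (771 CPM), Cd8a (950 CPM) and Trac (362 CPM) were below the other controls. Those had 1500 to 1899 CPM of Cd4, 1550 to 1815 CPM of Cd8a and 721 to 767 CPM of Trac. Lck at 3372 CPM was below their 3772 to 4133 CPM, and Cd3e at 1944 CPM just below their 2033 to 2240 CPM. The other markers of the list did not go this way. Cd3d at 747 CPM was above their 686 to 731 CPM, and Cd3g (845 CPM) and Trbc2 (4176 CPM) lay within their ranges. The 5 NK markers summed to 317 CPM there, mostly Gzma at 268 CPM, against 70.9 to 138 CPM in the other controls and 79.2 to 272 CPM in the KO-labelled libraries. In KO-labelled replicate 4 the 5 erythroid markers summed to 869 CPM, against 147 to 197 CPM in the rest of its group, and in control replicate 2 to 1162 CPM. The 5 myeloid markers summed to 229 CPM in KO-labelled replicate 4 and 276 CPM in control replicate 2, against 91.3 to 174 CPM in the other libraries. Different markers made up these sums. In KO-labelled replicate 4, S100a8 (77.8 CPM) and S100a9 (41.2 CPM) were the highest of all libraries, but Itgam (20.3 CPM) was the lowest. In control replicate 2, Lyz2 (185 CPM), Csf1r (28.0 CPM) and Itgam (41.3 CPM) were the highest, with S100a8 at 14.9 CPM. The part of these differences in the ribosomal protein values was not tested.

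Between the groups, no ribosomal protein gene passed the test. With limma and Benjamini-Hochberg adjustment over all 13840 genes tested, 0 of the 76 tested members had an adjusted p below 0.05, against 488 of all genes (3.53%). The lowest adjusted p was 0.0994, for Rpl10. At an unadjusted p below 0.05 there were 2 members, Rpl10 and Rps27, both higher in the KO-labelled libraries, against 19.3% of all genes in either direction and 7.62% higher. The groups did not overlap for 1 member, Rpl10, against 13.2% of all genes. By sign alone, 43 members were higher and 33 lower, and the median log2 change was 0.05, beside -0.04 over all genes tested. The 40S members had a median of 0.06 and the 60S members of 0.04. Log2 changes ran from -0.61 to 0.77, with an SD over the members of 0.24. The test was limited by the spread: the 95% interval of a member's log2 change reached a median of 0.51 to either side, and 71 of 76 intervals lay within -1 to 1. A p above the threshold does not show that levels were equal.

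**Figure D3:**
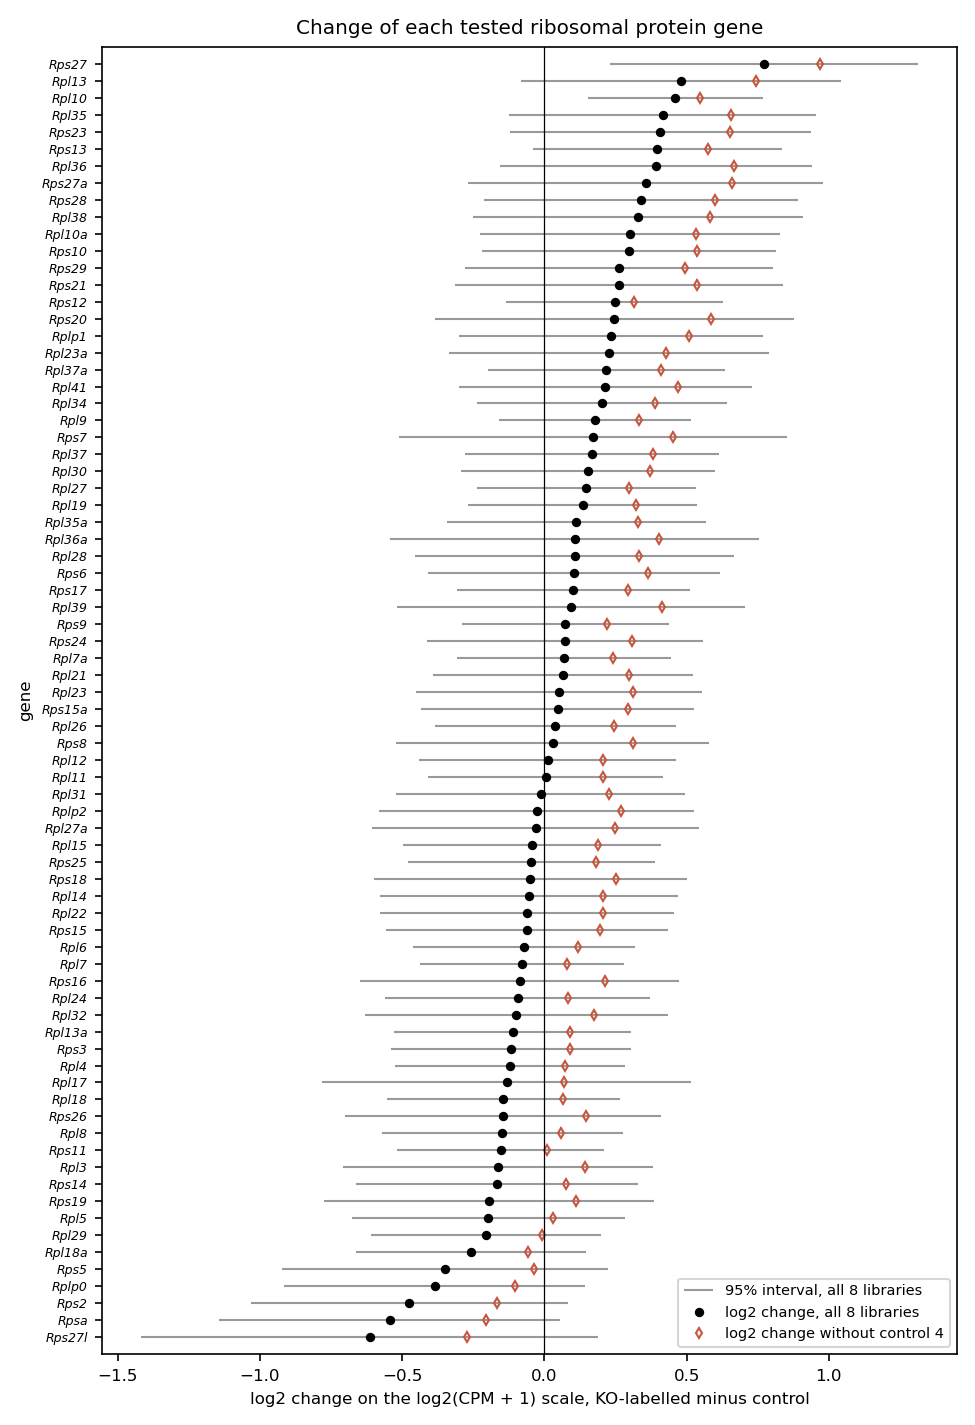
Log2 change (KO-labelled minus control, on the log2(CPM + 1) scale) of each tested member with all 8 libraries (black points with 95% limma intervals) and without control replicate 4 (red diamonds). With all libraries the points run from -0.61 to 0.77 around a median of 0.05, and without control replicate 4 the median is 0.28.

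Without control replicate 4 the log2 change of every member moved upward. This was fixed in advance, because all 76 tested members had their highest control value in that library. The median log2 change became 0.28 (all genes -0.05), with 69 members higher and 7 lower by sign, and 26 members changed sign. At an unadjusted p below 0.05 there were 30 members, all higher, against 8.79% of all genes higher. After adjustment 4 members were called higher and 0 lower, against 1.68% of all genes called higher: Rps27, Rpl10, Rpl36 and Rpl13. The same 4 were called when limma gave each library its own weight, with adjusted p from 0.0115 for Rpl10 to 0.0470 for Rpl36, and control replicate 4 then had a weight of 0.238, the lowest of the 8, with 3.54% of all genes called higher. These calls rest on leaving out or giving little weight to 1 library and are therefore not used as the result with all 8 libraries. Leaving out KO-labelled replicate 4 instead, the highest of its group for 73 of the 76 members, gave a median log2 change of -0.07.

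Among the 60S members, Rpl10, which sits close to the catalytic centre and joins the large subunit late in its assembly, had the lowest p. It lies on the X chromosome (chrX:74270812-74273135). Its levels were 19.2, 21.2, 19.2 and 25.6 CPM in control replicates 1 to 4, and 29.0, 31.2, 29.4 and 28.3 CPM in the KO-labelled libraries. Every KO-labelled library was above every control, with means of 21.3 ± 3.03 and 29.5 ± 1.25 CPM (SD, n = 4 each). The log2 change was 0.46 ± 0.14 (SE; 95% interval 0.15 to 0.77), and the limma adjusted p was 0.0994. Without control replicate 4 it was 0.55 with an adjusted p of 0.0347, in a range from 0.0115 to 0.895 over the alternatives. The highest of these came from summing Rpl10 with its 4 pseudogene rows, which hold 468 CPM to its own 5.15% of the family and turn the log2 change to -0.07. Rpl10 is X-linked, and a difference by sex cannot be told apart from one by label.

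Rpl13, a structural protein of the large subunit, had the second highest log2 change of the members. It stood at 72.0, 61.5, 61.1 and 136 CPM in control replicates 1 to 4. The KO-labelled libraries had 88.9, 105, 95.5 and 159 CPM. The groups overlap only through control replicate 4, whose value is above 3 of the 4 KO-labelled libraries. The log2 change was 0.48 ± 0.26 (limma adjusted p = 0.334) with all libraries and 0.74 ± 0.18 (adjusted p = 0.0381) without control replicate 4, with adjusted p from 0.0351 to 0.573 over the alternatives. Rpl36, named because it was called without control replicate 4 and chosen after its values were seen, showed the same order of libraries. It was at 100.4, 84.7, 81.7 and 191 CPM in the controls and at 125, 129, 127 and 194 CPM in the KO-labelled libraries. Its log2 change was 0.39 ± 0.25 (adjusted p = 0.421), and 0.67 ± 0.15 (adjusted p = 0.0354) without control replicate 4.

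Rpl5 and Rpl11, which bind the small ribosomal RNA of the large subunit together and link ribosome assembly to p53, stayed within the spread of the libraries. Rpl5 was at 29.4, 28.0, 24.8 and 52.0 CPM in control replicates 1 to 4 and at 24.1, 30.03, 24.98 and 33.5 CPM in the KO-labelled libraries. Rpl11 was at 41.6, 43.4, 42.8 and 74.8 CPM and at 49.1, 47.5, 43.5 and 57.9 CPM. In both genes control replicate 4 was the highest library, and KO-labelled replicate 4 the second highest. The log2 changes were -0.20 ± 0.22 for Rpl5 (limma adjusted p = 0.673) and 0.01 ± 0.19 for Rpl11 (adjusted p = 0.993), and leaving out single libraries changed the sign of both. Rpl22, which is needed for the development of alpha-beta T cells in mice and is lost in some human T-ALL, was at 99.9, 87.5, 92.1 and 196 CPM in the controls. Its KO-labelled levels of 94.8, 96.3, 105 and 139 CPM lay inside the range of the controls. The log2 change was -0.06 ± 0.24 (adjusted p = 0.919).

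The 3 stalk genes did not share a direction. Rplp0, which anchors the stalk to the ribosome, was the most abundant member by CPM, at 1249, 1032, 1196 and 2536 CPM in control replicates 1 to 4. It was at 1023, 996, 1103 and 1192 CPM in the KO-labelled libraries, with a log2 change of -0.39 ± 0.24 (limma adjusted p = 0.413). Rplp1 and Rplp2 form the mobile pairs that recruit elongation factors. Rplp1 was at 225, 191, 206 and 442 CPM in the controls and at 245, 296, 267 and 385 CPM in the KO-labelled libraries (log2 change 0.23 ± 0.24, adjusted p = 0.646). Rplp2 was at 202, 158, 193 and 419.7 CPM and at 197, 220.3, 203 and 272 CPM (log2 change -0.03 ± 0.25, adjusted p = 0.968). Without control replicate 4 the log2 changes were -0.10 for Rplp0, 0.51 for Rplp1 and 0.27 for Rplp2.

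Rpl3, a core protein near the catalytic centre, was at 264, 223, 229 and 554 CPM in the controls and at 225, 268, 270.2 and 293 CPM in the KO-labelled libraries (log2 change -0.16 ± 0.25, limma adjusted p = 0.772). The Rpl3 row held 22.6% of the level of its family, beside a mean of 998 CPM in 2 pseudogene rows. With those rows summed in, the log2 change was -0.48 ± 0.26 (limma adjusted p = 0.336). Rpl3l, its paralog of heart and skeletal muscle, was the single member that was not tested. It was at 0.493, 0.156, 0.105 and 0.136 CPM in the controls and at 0.0617, 0.357, 0 and 0 CPM in the KO-labelled libraries. A count of 3 reads is worth 0.136 to 0.214 CPM at these depths, so Rpl3l was near or below the level that could be detected. The other X-linked members, Rpl36a and Rpl39, a small protein of the exit tunnel, had means of 18.6 ± 9.57 and 92.0 ± 49.1 CPM in the controls. In the KO-labelled libraries they had 19.3 ± 6.17 and 91.3 ± 19.6 CPM, with log2 changes of 0.11 ± 0.30 and 0.09 ± 0.28 (adjusted p = 0.880 and 0.890).

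Among the 40S members, Rpsa, Rps2 and Rps27l had the lowest log2 changes, and in all of them control replicate 4 was far above the other controls. Rpsa encodes a protein of the 40S subunit that is also known as a laminin receptor. Rpsa was at 478, 369, 446 and 1098 CPM in control replicates 1 to 4 and at 341, 360.3, 411 and 377 CPM in the KO-labelled libraries. Its log2 change was -0.54 ± 0.27 (limma adjusted p = 0.303), and -0.20 ± 0.11 (adjusted p = 0.309) without control replicate 4. Rps2, a protein at the mRNA entry of the small subunit, was at 236, 200.5, 209 and 507 CPM in the controls. The KO-labelled libraries had 160.4, 192, 219 and 198 CPM, for a log2 change of -0.48 ± 0.25 (adjusted p = 0.334), and of -0.17 ± 0.12 (adjusted p = 0.430) without control replicate 4. Unlike most members, Rpsa and Rps2 were not raised in KO-labelled replicate 4, where they were 1.02 and 1.04 times the mean of the rest of that group.

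Rps9 and Rps14 were the next most abundant members by CPM. Rps9 was at 1114, 1043, 1063 and 1612 CPM in the controls and at 1187, 1203, 1149 and 1490.3 CPM in the KO-labelled libraries (log2 change 0.07 ± 0.17, limma adjusted p = 0.850). Rps14, whose loss underlies the anaemia of human 5q deletion, was at 1021, 962, 989 and 1929 CPM and at 1029, 877, 981 and 1337 CPM (log2 change -0.17 ± 0.23, adjusted p = 0.740). In both genes the replicate 4 libraries were the highest of their groups and the other 6 libraries lay close together. Per kilobase of the annotated transcript, Rps14 had the highest level of the tested members at 1453 CPM and Rpl17 the lowest at 4.47 CPM, with a median of 141 CPM. Reads placed at pseudogene rows are not part of these levels.

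The paralogs Rps27 and Rps27l had the highest and the lowest log2 change of all members. Rps27 was at 14.3, 10.3, 13.1 and 22.11 CPM in control replicates 1 to 4 and at 25.04, 27.1, 17.5 and 34.4 CPM in the KO-labelled libraries. Rps27l, known as a target of p53, was at 49.3, 27.3, 43.6 and 102 CPM in the controls and at 22.3, 25.04, 33.1 and 56.4 CPM in the KO-labelled libraries. Rps27 overlapped between the groups only at control replicate 4 and KO-labelled replicate 3, while Rps27l overlapped more widely. The log2 changes were 0.77 ± 0.25 for Rps27 (limma adjusted p = 0.113) and -0.61 ± 0.37 for Rps27l (adjusted p = 0.387). Without control replicate 4 they were 0.97 ± 0.21 (adjusted p = 0.0292) and -0.27 ± 0.29 (adjusted p = 0.616). Over the alternatives the adjusted p ran from 0.0202 to 0.246 for Rps27 and from 0.0930 to 0.641 for Rps27l.

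A ratio between paralogs within a library cancels most of the scaling of that library, apart from the 1 CPM added to each level. The log2 ratio of Rps27l to Rps27 was 1.72, 1.32, 1.67 and 2.15 in control replicates 1 to 4 and -0.16, -0.11, 0.88 and 0.70 in the KO-labelled libraries. Every control was above every KO-labelled library, and the difference of the means was -1.39. The exact two-sided permutation test over 70 assignments gave p = 0.0286, the smallest it can give, and 0.114 after Benjamini-Hochberg adjustment over the 4 pairs tested. The pair was listed with the extreme changes of its members known from the same libraries, so the p is no independent support. With the reads of the identical gene Rps27rt added to Rps27, an alternative chosen after seeing the data, the difference was -0.93, the groups overlapped, and the exact permutation p was 0.0571. Rps27rt held most of those reads, at 428, 409, 383 and 601 CPM in the controls and 494, 508, 493 and 732 CPM in the KO-labelled libraries.

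**Figure D4:**
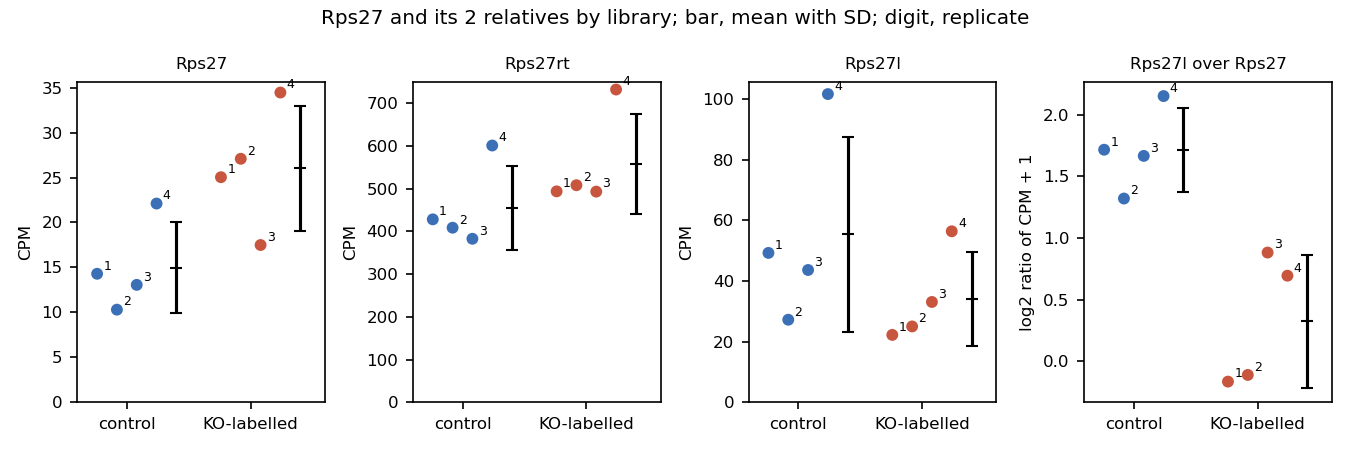
Levels (CPM) of Rps27, Rps27rt and Rps27l and the log2 ratio of Rps27l to Rps27, 1 point per library with the replicate number beside it and the group mean with SD as a bar. The ratio lies between 1.32 and 2.15 in controls and between -0.16 and 0.88 in KO-labelled libraries, while the levels of each single gene overlap between the groups.

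The other paralog pairs did not separate the groups. The log2 ratio of Rpl22l1 to Rpl22 was -1.03, -1.08, -1.35 and -1.30 in the controls and -0.99, -0.85, -0.90 and -1.05 in the KO-labelled libraries, a difference of 0.25 (exact permutation p = 0.0571, adjusted 0.114). For Rpl36al to Rpl36a the difference was 0.19 (exact permutation p = 0.286, adjusted 0.381), and for Rpl7l1 to Rpl7 it was -0.02 (exact permutation p = 0.886, adjusted 0.886). Of the 7 pairs listed, 3 could not be tested because a gene did not pass the filter or had no row.

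Reads of ribosomal protein genes are hard to place, because the genome holds many processed copies of them. For 51 members the table has rows of named pseudogenes, 149 in all, which summed to 7213 to 15275 CPM per library, again with the highest value in control replicate 4 (1.97 times the mean of the other controls). The members held 67.5% to 69.8% of the reads of members and pseudogene rows together in every library, so the split did not move with control replicate 4. For 22 members less than 50% of the family's level was at the member itself, with the lowest shares at Rpl17 (1.96%), Rpl10 (5.15%), Rps6 (8.78%) and Rpl23a (10.3%). These shares count named pseudogene rows only, so Rps27 stands at 98.2% although Rps27rt has the same coding sequence. Of the summed mean level of Rps27 and Rps27rt, Rps27 held 14.9 of 470 CPM in controls and 26.0 of 583 CPM in KO-labelled libraries. With each member summed with its pseudogene rows, an alternative chosen after seeing the data, again 0 members were called, against 3.6% of all rows. The lowest limma adjusted p was then 0.111, for Rps27 without the reads of Rps27rt. Of members at 100 to 1000 reads, 0 to 4 of 7 to 22 per library were whole numbers of reads (within 0.02 reads), against 67.0% to 68.5% of other genes in that range. The members' levels thus hold fractions of reads far more often than those of other genes. In addition, 13 members have exons that overlap a gene on the opposite strand in GENCODE vM21, Rpl5 among them, and no strand setting is given.

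Shorter members tended to have higher log2 changes than longer ones. Over the 76 tested members, Spearman's correlation between the log2 change and the length of the principal transcript (345 to 5179 bases, median 869) was -0.46. The points share the same 8 libraries, and the correlation of the log2 change with the members' mean level was -0.51, while that of length with level was 0.26. The 19 shortest members, up to 610.5 bases, had a median log2 change of 0.23 with 16 above 0, and the 19 longest, from 1159 bases, had a median of -0.08 with 5 above 0. The correlation was -0.46 without control replicate 4, -0.43 without KO-labelled replicate 4, and -0.44 with the pseudogene rows summed in. Over 13529 other genes it was -0.14 with all libraries, and over the 2661 of them with transcripts of up to 1300 bases it was -0.25. For these 2 sets it was -0.25 and -0.26 without control replicate 4. Without KO-labelled replicate 4 it was -0.0053 and -0.22. By library, the level of a member relative to its own mean over all 8 libraries had a positive correlation with length in all 4 controls (0.32 to 0.38). It was negative in KO-labelled replicates 1, 2 and 4 (-0.27, -0.39 and -0.54) and 0.06 in replicate 3. Because that mean includes both groups, opposite signs in the groups largely restate the change between them and are no separate support. The difference from other genes was not tested.

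**Figure D5:**
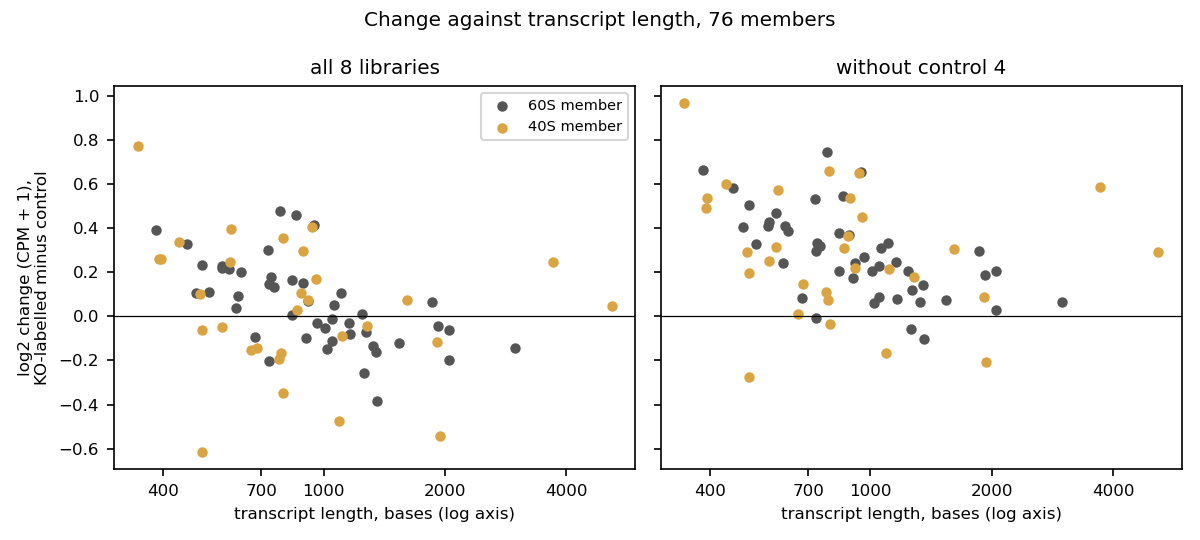
Log2 change of each tested member (KO-labelled minus control, log2(CPM + 1) scale) against the length in bases of its principal transcript (log axis), 1 point per gene, with all 8 libraries and without control replicate 4. Spearman's correlation over the 76 members is -0.46 in both panels, and the points of the second panel lie higher.

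Other genes of the same system were read beside the members. The 8 ribosomal protein genes outside the rule had 0 calls and a median log2 change of 0.10 (0.31 without control replicate 4), and control replicate 4 was 1.67 times the mean of the other controls for their sum. Rps27rt (log2 change 0.29 ± 0.18, limma adjusted p = 0.391) and Rpl36al (0.29 ± 0.22, adjusted p = 0.506) had the lowest p among them. Of 21 translation factors and other genes known for TOP mRNAs, 0 were called, and 2 were higher and 3 lower at an unadjusted p below 0.05, against 7.62% of all genes higher and 11.7% lower. The median was -0.11, and control replicate 4 was 1.65 times the other controls. Without control replicate 4 the median turned to 0.08 and 1 gene was called higher, Tpt1 (log2 change 0.63, limma adjusted p = 0.0252), which had 0.48 (adjusted p = 0.151) with all libraries and was named after its values were seen. Eif4b, a helper of the helicase that opens mRNA starts, was at 270 ± 33.5 CPM in controls and 194 ± 22.3 CPM in KO-labelled libraries (log2 change -0.47 ± 0.13, adjusted p = 0.0713; with array weights -0.37, adjusted p = 0.0283). Eef2, the factor that moves the ribosome along the mRNA, was at 2105 ± 436 and 1457 ± 170 CPM (-0.52 ± 0.17, adjusted p = 0.123).

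Among 24 chaperones and maturation factors of the subunits 0 were called in either direction, with a median of 0.01 (0.11 without control replicate 4) and 0 genes at an unadjusted p below 0.05. Sbds, which helps release eIF6 from the new large subunit, had a log2 change of 0.23 ± 0.13 (limma adjusted p = 0.369), and Bccip, a chaperone of large-subunit assembly, of 0.21 ± 0.14 (adjusted p = 0.445). Of 17 regulators of TOP mRNA translation 0 were called and 1, Eif4ebp2, was lower at an unadjusted p below 0.05. Eif4ebp2, a translation repressor under mTORC1, was at 128 ± 11.1 CPM in controls and 103 ± 8.77 CPM in KO-labelled libraries (-0.31 ± 0.11, adjusted p = 0.168; with array weights -0.35, adjusted p = 0.0324). Larp1, which binds the TOP stretch, was at 103 ± 30.1 and 75.9 ± 13.4 CPM (-0.41 ± 0.19, adjusted p = 0.271; -0.22, adjusted p = 0.366, without control replicate 4), and control replicate 4 was again its highest library. Of 78 mitochondrial ribosomal protein genes, 1 was called higher, against 1.21% of all genes, and 0 lower. Their median was -0.14 (-0.03 without control replicate 4), and their sum in control replicate 4 was 1.37 times that of the other controls, against 1.92 times for the cytosolic members. In KO-labelled replicate 4 it was 1.32 times that of the rest of the group, against 1.28 times for the cytosolic members. There the ratio was 1.27 for the genes outside the rule, 1.17 for the maturation factors, and 1.01 for the TOP genes and for the regulators.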

How the data were processed

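Per the labels' protocols, the kits were NucleoSpin RNA XS for RNA and SMARTer Ultra Low RNA for the libraries. STAR 2.7.3a, Partek 10.0.22.0524 and mm10 stand in the submitters' processing notes. The sources used here give neither the counter nor its strand setting nor its handling of reads that map to several places. The authors deposited CPM for 20888 genes with 0.0001 added to each value, which was subtracted. Depth was estimated from the step between low CPM values. Values were not whole reads throughout, so no count model was run. The floor of 3 reads covers counting error only, and limma intervals cover the spread between libraries.

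The 13840 genes that reached 1 CPM in 4 or more of the 8 libraries were tested with limma 3.58.1 in R 4.3.3 (lmFit, eBayes with trend) on log2(CPM + 1), KO-labelled minus control, two-sided, with Benjamini-Hochberg adjustment over all of them and a threshold of 0.05. This scale understates the change of low genes. The fit was also run on simulated data with independent noise for each gene. Those data held no shift shared by the genes of a library, so that run does not cover a library such as control replicate 4. Paralog ratios were compared by an exact permutation test. Errors are SD of levels and SE of log2 changes.

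The members and lists were chosen with earlier results of these data known. Named members were those called, the 3 highest and 3 lowest log2 changes, the 3 highest levels, members ending in l with their partners, X-linked members, Rpl5, Rpl11, Rpl10, Rpl22 and the stalk, and from each other list the 2 with the lowest p. Alternatives were the pseudocount (0.1), no filter, median-ratio, quantile and non-ribosomal scaling, array weights, a replicate block, leaving out each library, and, chosen after seeing the data, pseudogene rows summed in, scaling by the summed members, and Rps27 with Rps27rt. Transcript lengths and overlaps came from GENCODE vM21, which may differ from the annotation the authors used, and starts from RefSeq.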

Additional observations from a re-analysis of the deposited data

Results flagged for a closer look

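A library was set apart where its gap to the nearest other library of its group, as a share of the range of the group, passed Dixon's criterion for 4 values. Of 74 groups of values examined 28 passed, and 19 of the 28 were control replicate 4. Chance gives about 1 in 20 for groups of values that are independent. These groups share the same 8 libraries, many of their genes move together, and some are sums of the others. The count therefore cannot be set against that rate, and the passes of 1 library are not separate findings.

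Control replicate 4 was set apart for the summed level of the ribosomal protein genes (0.858) and for Rpl13 (0.855), Rpsa (0.85), Rps2 (0.885), Rplp0 (0.855), Rps9 (0.875), Rps14 (0.939), Rpl3 (0.876), Rpl36a (0.929), Rpl5 (0.834), Rpl11 (0.948), Rpl22 (0.886), Rplp1 (0.863) and Rplp2 (0.832). It was also set apart for Larp1 (0.925) and for the sums of the mitochondrial ribosomal protein genes (0.854), the ribosomal protein genes outside the rule (0.875), the translation factors and other TOP genes (0.872) and the pseudogene rows (0.847). In each of these it was the highest control.

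KO-labelled replicate 4 was set apart for the summed level of the members (0.838), for Rps9 (0.842), Rps27rt (0.937), Sbds (0.858), Bccip (0.868) and the sum of the genes outside the rule (0.882), where it was the highest of its group, and for Eef2 (0.85), where it was the lowest. Control replicate 1 was set apart for Rpl3l (0.868), at levels near the detection floor. KO-labelled replicate 3 was set apart for the log2 ratio of Rpl36al to Rpl36a (0.858), at 3.09 against 2.74 to 2.79 in the rest of its group.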

How the results depend on the processing

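No member was called lower under any alternative run, and 4 were called higher with array weights; leaving out single libraries gave 0 to 4, with 4 only without control replicate 4. The median log2 change of the members ran from -0.07 to 0.28 with a library left out, and the difference of the mean log2 sums from -0.18 to 0.16. Deviations from the group means had correlations of 0.15, 0.07, -0.10 and 0.18 between libraries of the same replicate number, 1 to 4. Unlike numbers were not compared, so whether the numbers pair the libraries was not tested. A replicate block in limma gave 0 members called and 509 genes in all, against 488. At an unadjusted p below 0.05 it gave 3078 genes, against 2677. Its adjusted p was lower for Rpl13 (0.0698), Rps27 (0.0605) and Rps27l (0.0931) and higher for Rpl10 (0.112) than without the block. Of 425 single-gene values under alternatives, 393 kept direction and side of the threshold, 24 reversed and 8 passed the threshold newly (Rpl10, Rpl13 and Rps27 with array weights and without control replicate 4, Eif4b and Eif4ebp2 with array weights). Reversed values were -0.0650 for Rpl10 with pseudogene rows summed in; 0.0509 for Rpl3 and 0.0768 for Rpl22 with array weights, and 0.0131 for Rpl22 scaled by the summed members; for Rplp2, 0.0017 with median-ratio scaling, 0.13 with array weights and 0.0467 scaled by the summed members; and 0.0526 for the Rpl7l1 to Rpl7 ratio with quantile normalization. With single libraries left out, log2 changes ran from -0.0101 to 0.22 for Rps9, -0.28 to 0.0745 for Rps14, -0.29 to 0.14 for Rpl3, -0.0796 to 0.40 for Rpl36a, -0.0559 to 0.41 for Rpl39, -0.32 to 0.0294 for Rpl5, -0.0720 to 0.20 for Rpl11, -0.18 to 0.21 for Rpl22 and -0.20 to 0.27 for Rplp2, and the Rpl7l1 to Rpl7 ratio from -0.11 to 0.0876. The causes of these shifts were not tested. Ratios have no value with array weights, and sums none with another pseudocount, no filter or array weights. With 4 libraries a group, the smallest exact p is 0.0286 and a member's log2 change is known to about ± 0.51.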
